A study of Arabidopsis thaliana with 18 samples.

Results

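Flavonoid and anthocyanin synthesis was followed through 6 Arabidopsis genes, chosen by name out of 13350 genes that have a probe set of their own here, each read by 1 of the 22810 probe sets on the array. CHIL encodes a chalcone isomerase-like protein that assists the first steps of flavonoid synthesis. UGT78D2 encodes a glucosyltransferase that acts on both flavonols and anthocyanidins. DFR, UF3GT and AT4G14090 serve anthocyanins: DFR encodes dihydroflavonol reductase, which commits dihydroflavonols to anthocyanins, UF3GT adds xylose to the anthocyanin sugar, and AT4G14090 encodes an anthocyanin 5-O-glucosyltransferase. AT1G06000 encodes a flavonol 7-O-rhamnosyltransferase, so it stands for the flavonol side. Anthocyanins are the red and purple pigments of plants, and flavonols are colourless relatives that absorb ultraviolet light. Both are made from chalcones by shared early enzymes, and in Arabidopsis seedlings the anthocyanin steps are known to be high in the cold and low in warmth.

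The study profiled whole seedlings of the arp6-10 mutant and of Col-0, its wild-type reference, on 18 Affymetrix arrays, 12 for arp6-10 and 6 for Col-0. ARP6 belongs to SWR1, a remodelling complex that exchanges histone H2A for its variant H2A.Z. Each genotype was sampled at 12 °C, 2 h after a shift to 27 °C and 24 h after it, with 4 arrays for each arp6-10 group and 2 for each Col-0 group. Seeds of all groups were kept at 4 °C in the dark for 48 h, germinated at 20 °C on sugar-free medium and moved after 5 days to 12 °C for 3 days of continuous light, and the labels give 8 days as the age of every group. No seedlings held at 12 °C for the same extra hours are among these groups, so warmth and elapsed time cannot be told apart. Nothing in the labels tells whether replicate arrays are separate cultures, and p-values therefore reflect only the scatter among these samples, possibly a technical one. ARP6 itself was not analysed here. Because RNA came from whole seedlings, fewer cells that make a transcript and less transcript in each cell cannot be told apart.

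The values are the authors' intensities, which they scaled so that every array had the same trimmed mean, between 250.03 and 250.04. Averaged over arrays, the 6 probe sets ranked between the 70.3rd percentile (AT4G14090) and the 91.9th percentile (AT1G06000) of all probe sets. On single arrays 2 of them were dim: AT4G14090 was below the array's median on 7 arrays, at its lowest on the 35.4th percentile (Col-0 after 2 h), and UF3GT on 4, at its lowest on the 38.9th. No detection call was used here, so folds against these low values are less certain than their errors show. Probe sets differ in how brightly they hybridise, so a level is compared only with the same gene's level on other arrays. The shoot markers RCA, PRK, PSAE-1 and LHCB4.2 and the root markers PYK10 and NAI2 read 464.6 or more on every array. Signal from both shoot and root goes with the label of whole seedlings. The root marker EXPA7 was dimmer, at 23.6 to 249.9, and whether it was detected was not tested. The ratio of 3' to 5' GAPDH signal, a measure of how intact the RNA was, ran from 1.47 to 6.78 over the arrays.

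Of the 18 arrays, 2 stood apart from their labels. Each array was placed on an axis on which the mean of the other 3 arp6-10 12 °C arrays was 0 and that of the other 3 arp6-10 24 h arrays was 1, computed from probe sets outside the flavonoid lists. The library labelled arp6-10 12 °C replicate 3 lay at 0.954, whereas the other 12 °C mutant arrays lay between -0.029 and 0.024. The library labelled arp6-10 24 h replicate 2 lay at -0.035, whereas the other 24 h mutant arrays lay between 0.995 and 1.009. Correlations over probe sets gave the same order: the 12 °C array correlated at 0.920 to 0.937 with the other 12 °C mutant arrays and at 0.978 to 0.981 with the 24 h mutant arrays. The 24 h array correlated at 0.969 to 0.988 with the 12 °C mutant arrays and at 0.917 to 0.921 with the other 24 h arrays. Both arrays were kept under their labels in the fit of all 18 arrays. Every result that rests on them is given again without them, on 16 arrays, as an alternative chosen after seeing the data. The 2 arrays were first noticed partly through flavonoid genes, so the fit without them is not an independent check of those genes.

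The intensity of DFR in arp6-10 was 3651.0, 3041.7, 108.8 and 3025.1 at 12 °C (replicates 1 to 4), 365.1, 257.0, 272.2 and 290.2 after 2 h, and 200.5, 3452.4, 91.1 and 129.9 after 24 h. In Col-0 it was 1986.1 and 1504.8 at 12 °C, 79.8 and 135.4 after 2 h, and 255.6 and 267.4 after 24 h. In both genotypes the 12 °C arrays were the high ones, except that the mutant's replicate 3 at 12 °C was among the lowest of all and its replicate 2 at 24 h among the highest. Within arp6-10 the 24 h arrays other than replicate 2 were all below the 2 h arrays, while in Col-0 both 24 h arrays were above both 2 h arrays.

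UF3GT followed the same course. In arp6-10 it read 1096.2, 1143.6, 47.5 and 1440.7 at 12 °C, 151.1, 123.2, 123.2 and 96.5 after 2 h, and 102.8, 1437.5, 63.0 and 70.0 after 24 h. In Col-0 it read 845.0 and 883.1 at 12 °C, 50.3 and 89.6 after 2 h, and 144.1 and 188.5 after 24 h. After 24 h the 3 mutant arrays that cluster together were below both Col-0 arrays.

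AT4G14090, the last of the anthocyanin steps measured, had intensities in arp6-10 of 1453.4, 782.7, 70.4 and 1514.4 at 12 °C, 135.5, 154.3, 157.4 and 140.1 after 2 h, and 77.9, 1559.9, 75.2 and 54.5 after 24 h. The Col-0 intensities were 558.1 and 465.3 at 12 °C, 41.0 and 33.9 after 2 h, and 76.6 and 99.2 after 24 h. After 2 h all 4 mutant arrays were above the higher Col-0 array, but the share of all probe sets without overlap was not counted.

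For AT1G06000, the flavonol step, the arp6-10 intensities were 2429.1, 1821.0, 590.4 and 3341.1 at 12 °C, 388.5, 304.4, 526.7 and 537.9 after 2 h, and 652.9, 4037.6, 926.9 and 1001.7 after 24 h. Its Col-0 intensities were 2364.5 and 1957.9 at 12 °C, 330.0 and 300.4 after 2 h, and 644.9 and 737.1 after 24 h. In both genotypes every 24 h array was above every 2 h array, replicate 2 of the mutant being the highest of all 18.

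CHIL and UGT78D2 are the genes shared by both branches. CHIL read 1592.6, 1730.5, 379.0 and 1677.3 at 12 °C, 300.8, 248.6, 280.8 and 270.1 after 2 h, and 368.6, 2113.4, 295.2 and 371.7 after 24 h in arp6-10, and 867.1 and 1017.0, 148.6 and 154.3, and 425.9 and 377.3 at the same times in Col-0. UGT78D2 read 2567.6, 1610.2, 570.5 and 2088.7 at 12 °C, 488.3, 502.1, 387.0 and 471.6 after 2 h, and 660.1, 2227.7, 603.4 and 616.7 after 24 h in arp6-10. The Col-0 values of UGT78D2 were 1476.3 and 1719.6 at 12 °C, 492.0 and 353.0 after 2 h, and 804.9 and 792.1 after 24 h. For CHIL the mutant and Col-0 arrays did not overlap after 2 h, whereas for UGT78D2 they did. For none of the genes was the share of all probe sets with groups apart counted, so such separations are descriptions.

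**Figure D1:**
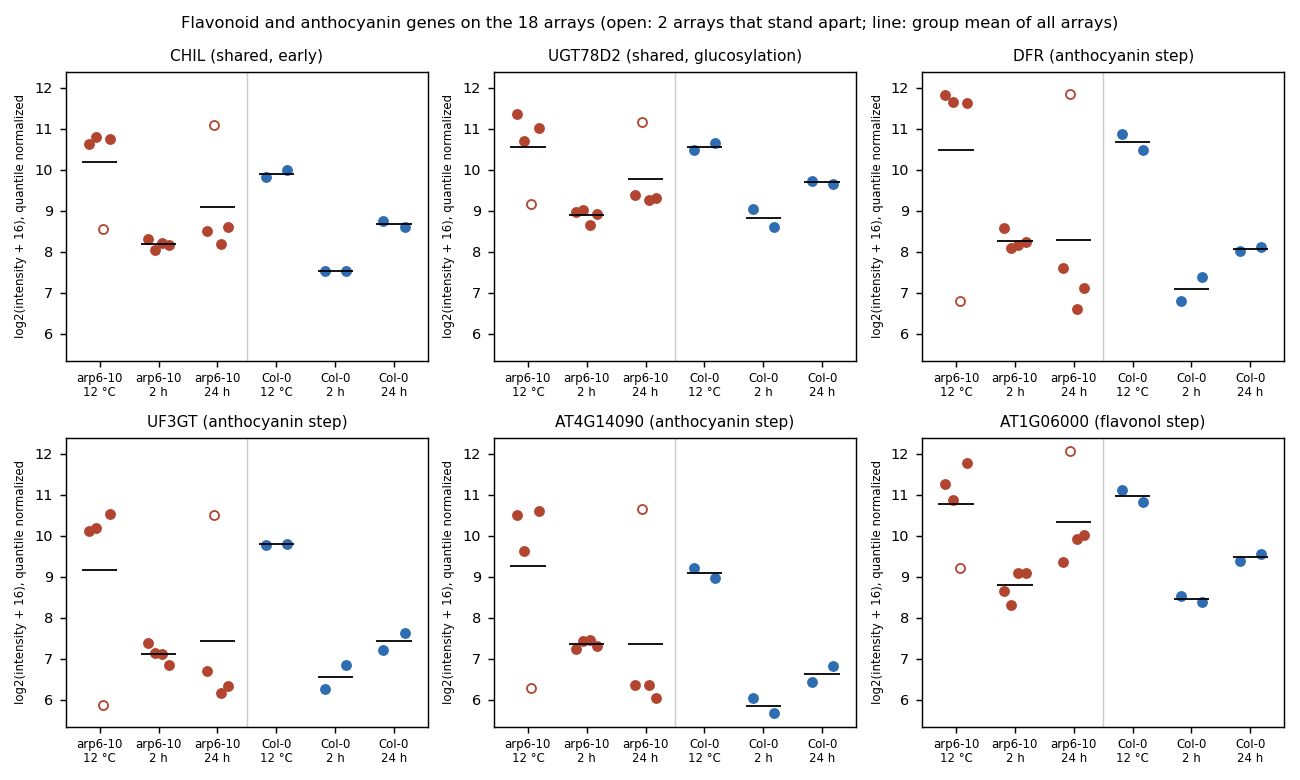
Quantile-normalized log2(intensity + 16) of the 6 genes on each of the 18 arrays, by genotype and time, with arp6-10 in red and Col-0 in blue; lines are group means over all arrays of a group and open points the 2 arrays that stand apart. The open 12 °C point sits with or below the warm arrays and the open 24 h point with the 12 °C arrays in every panel.

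The first question was how the genes responded to the first 2 h at 27 °C. Fits were made with limma over 15922 probe sets, with p-values adjusted by the Benjamini-Hochberg method, and a gene was called at an adjusted p under 0.05. In arp6-10 the fit of all 18 arrays, which takes 1 estimate of spread from both genotypes, called 3 of the 6 genes lower after 2 h than at 12 °C, against 1.84% of probe sets called lower. CHIL fell by 2.00 ± 0.52, UGT78D2 by 1.67 ± 0.41 and AT1G06000 by 1.99 ± 0.50 on the log2 scale (standard error, n = 4 each), with adjusted p = 0.0414, adjusted p = 0.0343 and adjusted p = 0.036. The anthocyanin steps had changes of about the same size with wider errors, -2.21 ± 1.02 for DFR, -2.05 ± 0.90 for UF3GT and -1.89 ± 0.89 for AT4G14090, and did not pass. None of these 3 calls held when any of replicates 1, 2 and 4 at 12 °C or any 2 h array was left out, and all 6 genes were called without 12 °C replicate 3. On 16 arrays all 6 genes were called lower, beside 8.63% of probe sets. Their folds were then 10.8 for DFR, 8.89 for UF3GT, 7.37 for AT4G14090, 5.83 for CHIL, 5.71 for AT1G06000 and 4.38 for UGT78D2. These folds are on the scale of log2(intensity + 16), which understates the change of dim genes. Leaving out any further array kept 6 of 6.

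In Col-0, with its 6 arrays fitted alone, all 6 genes were lower after 2 h than at 12 °C, beside 8.02% of probe sets called lower. DFR fell by 3.59 ± 0.23 (standard error, n = 2 each) on the log2 scale, a 12.1-fold lower level (adjusted p = 3.85e-07). UF3GT and AT4G14090 were each 9.42-fold lower, with log2 changes of -3.24 ± 0.24 and -3.24 ± 0.25. AT1G06000 was 5.67-fold lower, CHIL 5.17-fold lower and UGT78D2 3.34-fold lower, and leaving out any 1 of the 6 Col-0 arrays kept all 6 calls. In the fit of all 18 arrays only AT1G06000 passed among the 6 in Col-0 (adjusted p = 0.039), beside 3.54% of probe sets called lower. Without the 2 arrays that fit again called 6 of 6, against 10.1% of probe sets.

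The 24 h arrays were compared with the same 12 °C arrays as the 2 h arrays. In arp6-10 no probe set at all passed in the fit of all 18 arrays for 24 h against 12 °C (0% called by limma, with 1691 at an unadjusted p under 0.05), so 0 of the 6 genes did. DFR had a log2 change of -2.18 ± 1.02 and AT1G06000 one of -0.44 ± 0.50 there. The 2 arrays that stand apart lie in these 2 groups, 1 in each. Without them the groups did not overlap for any of the 6 genes, but the share of all probe sets without overlap was not counted. All 6 were called lower, against 14.9% of probe sets called lower. DFR fell by 4.60 ± 0.22 on the log2 scale, a 24.2-fold lower level (n = 3 each, adjusted p = 2.68e-11). AT4G14090 was 15.8-fold lower, UF3GT 14.7-fold, CHIL 4.90-fold, UGT78D2 3.26-fold and AT1G06000 2.90-fold lower. Leaving out only the 12 °C array gave 3 calls, leaving out only the 24 h array gave 5, and leaving out any other array in addition to both kept 6.

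The Col-0 levels after 24 h were also below those at 12 °C. With the Col-0 arrays alone all 6 were called lower, against 12.1% of probe sets, and all 6 stayed so when any 1 Col-0 array was left out. DFR was 6.09-fold lower (log2 change -2.61 ± 0.23, adjusted p = 4.1e-06), AT4G14090 5.51-fold, UF3GT 5.14-fold, AT1G06000 2.81-fold, CHIL 2.33-fold and UGT78D2 1.83-fold lower. The fit of all 18 arrays called 0 of the 6 here, while 17.4% of probe sets passed in either direction. On 16 arrays it called 6 of 6, against 14.3% of probe sets called lower.

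**Figure D2:**
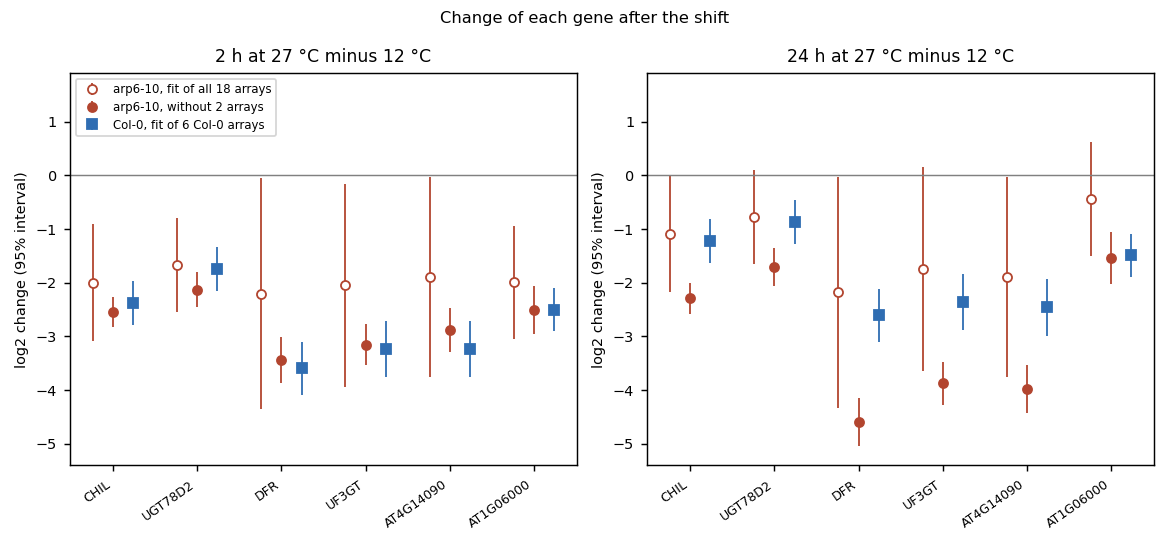
Log2 change of each gene after 2 h (left) and 24 h (right) at 27 °C relative to 12 °C, with 95% intervals from limma, for arp6-10 with all 18 arrays fitted (open red), arp6-10 without 2 arrays (filled red) and Col-0 with its 6 arrays fitted alone (blue). After 24 h the filled red points for DFR, UF3GT and AT4G14090 lie between -4.60 and -3.88, below the blue points between -2.61 and -2.36, while the AT1G06000 points lie at -1.54 and -1.49.

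Between 2 h and 24 h in arp6-10, the fit of all 18 arrays called 0 of the 6 genes, against 1.83% of probe sets, and DFR had a log2 change of 0.03 ± 1.02. On 16 arrays DFR was a further 2.24-fold lower at 24 h than at 2 h (log2 change -1.16 ± 0.20, n = 3 and 4, adjusted p = 0.000582). AT4G14090 was 2.15-fold lower (-1.10 ± 0.20, adjusted p = 0.000801) and UF3GT 1.65-fold lower (-0.72 ± 0.18, adjusted p = 0.0107). AT1G06000 was 1.97-fold higher at 24 h than at 2 h (0.98 ± 0.21, adjusted p = 0.004). CHIL and UGT78D2 had changes of 0.25 ± 0.13 and 0.43 ± 0.15 and did not pass. The 4 calls compare with 14.9% of probe sets called in either direction, and the call of UF3GT was lost without arp6-10 24 h replicate 3.

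In Col-0, with its arrays fitted alone, 5 of the 6 genes were higher at 24 h than at 2 h, against 5.58% of probe sets called higher. CHIL rose 2.21-fold (log2 change 1.15 ± 0.19, adjusted p = 0.00168), AT1G06000 2.02-fold, DFR 1.98-fold, and UF3GT and UGT78D2 1.83-fold and 1.82-fold. AT4G14090 had a change of 0.77 ± 0.25 with adjusted p = 0.06. Leaving out any 1 of the 4 Col-0 arrays compared left 3 calls, of which CHIL was one each time; AT1G06000 was lost without 2 h replicate 2 and DFR without 2 h replicate 1 or either 24 h array. The 18-array fit called 0 of the 6 here, against 4.67% of probe sets, and the 16-array fit 5, against 7.71% called higher.

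Set beside the first 2 h, the 24 h change of DFR on the log2 scale amounted to 134% of the 2 h change in arp6-10 (16 arrays) and 72.6% in Col-0. The shares were 123% and 73.0% for UF3GT and 138% and 76.1% for AT4G14090, in arp6-10 and in Col-0. For AT1G06000 they were 61.2% in arp6-10 and 59.5% in Col-0. CHIL stood at 90.1% in arp6-10 and 51.6% in Col-0, and UGT78D2 at 80.1% and 50.2%. With all 18 arrays the arp6-10 shares were lower, at 98.8% for DFR, 85.1% for UF3GT and 100% for AT4G14090. They were then 22.1% for AT1G06000, 54.3% for CHIL and 46.7% for UGT78D2. Within each genotype the 2 changes share the 12 °C arrays, so each share is a description.

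The anthocyanin steps were also set against the flavonol step on each array, as the log2 value of DFR, UF3GT or AT4G14090 minus that of AT1G06000. This difference has no meaning as a level, because the probe sets differ, but its change between groups is the change of one step relative to the other. For DFR it was 0.58, 0.77, -2.42 and -0.12 at 12 °C, -0.09, -0.22, -0.91 and -0.85 after 2 h, and -1.75, -0.21, -3.32 and -2.89 after 24 h in arp6-10. The 24 h arrays were the low ones, with replicate 2 as the exception, and 12 °C replicate 3 fell among them. Over all arrays the change between 24 h and 2 h was -1.53 for DFR, -1.25 for UF3GT and -1.56 for AT4G14090. The exact two-sided permutation tests gave p = 0.114, p = 0.0857 and p = 0.0857. None of the 9 such tests in arp6-10 passed (exact p between 0.0571 and 0.914, adjusted over the 9 between 0.205 and 0.914).

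Without the 2 arrays the anthocyanin steps were lower relative to AT1G06000 at 24 h than at 2 h by -2.14 for DFR, -1.70 for UF3GT and -2.08 for AT4G14090 (log2, n = 3 and 4), with no overlap between the groups. Each had an exact permutation p = 0.0286, the smallest this design can give, and an adjusted p of 0.0858 over the 9 tests. Relative to 12 °C the 24 h changes were -3.06, -2.34 and -2.45 in the same order (n = 3 each), where an exact p cannot be under 0.1. After only 2 h the changes were -0.92, -0.64 and -0.37, and the groups overlapped for all 3. In Col-0 an exact test of 2 arrays against 2 cannot give a p under 0.333, and no other test of these differences was made. There the changes relative to AT1G06000 after 2 h were -1.09 for DFR, -0.73 for UF3GT and -0.73 for AT4G14090. After 24 h they were -1.12, -0.87 and -0.97 in that order, and between 24 h and 2 h -0.03, -0.14 and -0.24, with the 2 groups apart only for AT4G14090.

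**Figure D3:**
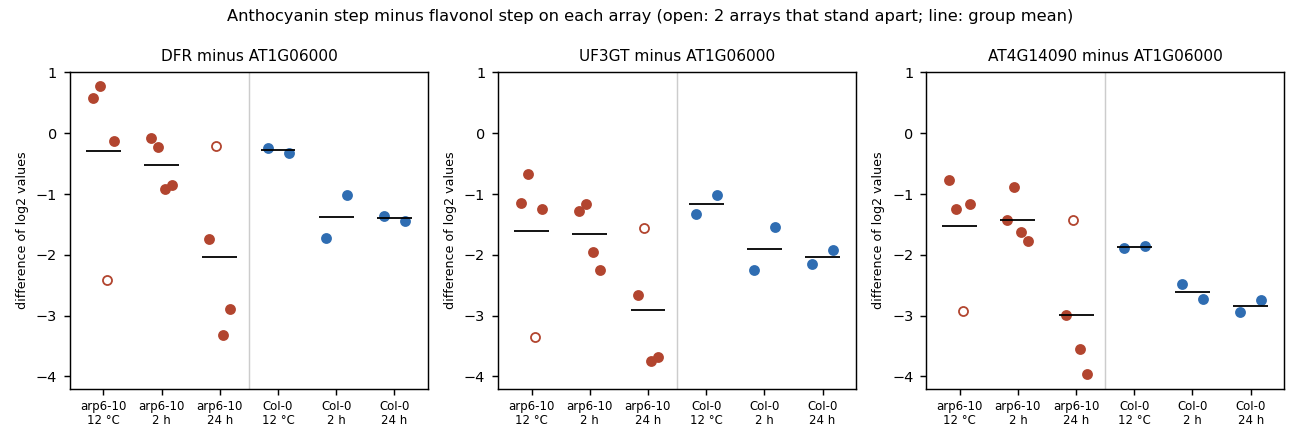
Log2 value of each anthocyanin step minus that of AT1G06000 on the same array, by genotype and time; lines are group means over all arrays of a group and open points the 2 arrays that stand apart. For DFR the 3 filled 24 h points of arp6-10 lie between -3.32 and -1.75, below all 2 h points, while the Col-0 means are -1.37 after 2 h and -1.40 after 24 h.

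The genotypes were then compared at each time. With all 18 arrays 0 of the 6 genes differed between arp6-10 and Col-0 at 12 °C, where 32.3% of probe sets did. None of the 6 differed after 2 h (9.25% of probe sets) or after 24 h (0.93% of probe sets). Over the 6 genes the median log2 difference, arp6-10 minus Col-0, was -0.09 at 12 °C, 0.61 after 2 h and 0.32 after 24 h, beside medians of -0.05, 0.02 and -0.0034 over all probe sets tested.

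On 16 arrays some of the genes were higher in the mutant before the shift. At 12 °C AT4G14090 was 2.23-fold, DFR 2.04-fold and CHIL 1.76-fold higher in arp6-10 than in Col-0 (adjusted p = 0.000906, adjusted p = 0.00253 and adjusted p = 0.000524), which is 3 of 6 beside 20.7% of probe sets called higher. UF3GT, UGT78D2 and AT1G06000 had log2 differences of 0.48 ± 0.22, 0.46 ± 0.19 and 0.34 ± 0.26 and did not pass. With all 18 arrays the 12 °C differences were -0.62 ± 1.10 for UF3GT, -0.20 ± 1.25 for DFR and -0.18 ± 0.61 for AT1G06000, the opposite sign to those on 16 arrays. After 2 h the same 3 genes passed, with AT4G14090 2.85-fold, DFR 2.27-fold and CHIL 1.56-fold higher in arp6-10, beside 10.6% of probe sets. Only the 12 °C comparison holds 1 of the arrays that stand apart; the 2 h arrays are the same in both fits, and the fit of these 2 groups alone also called 3 genes. CHIL was lost after 2 h when Col-0 2 h replicate 2 was left out of the 16 arrays.

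After 24 h 2 anthocyanin steps were lower in the mutant on 16 arrays. UF3GT was 2.04-fold lower and DFR 1.95-fold lower in arp6-10 than in Col-0 (log2 differences -1.03 ± 0.22 and -0.96 ± 0.24, adjusted p = 0.0149 and adjusted p = 0.037), beside 1.37% of probe sets called lower. AT4G14090 had a difference of -0.37 ± 0.24 and AT1G06000 one of 0.29 ± 0.26, and neither passed. With all 18 arrays the differences were 0.23 ± 1.25 for DFR, 0.73 ± 1.08 for AT4G14090 and 0.87 ± 0.61 for AT1G06000, so those of DFR and AT4G14090 had the opposite sign there. These 2 calls rest on few arrays: 0 were left without Col-0 24 h replicate 2, without arp6-10 24 h replicate 3 or without arp6-10 24 h replicate 4, and only UF3GT was left without Col-0 24 h replicate 1.

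The difference between the genotypes' responses was tested as an interaction. For the 2 h response 0 of the 6 genes passed with all 18 arrays (0.59% of probe sets called by limma, 2267 at an unadjusted p under 0.05), and 0 of 6 passed on 16 arrays (2.07%). For DFR on 16 arrays the 2 h difference was 0.15, with a 95% interval of -0.54 to 0.85. For the 24 h response 0 of the 6 passed with all 18 arrays, beside 5.83% of probe sets, and all 6 differences were above 0, with 0.42 ± 1.77 for DFR and 1.05 ± 0.87 for AT1G06000. On 16 arrays the sign turned and 5 of the 6 passed with a larger fall in arp6-10 than in Col-0, beside 7.76% of probe sets called in that direction. The difference was -1.99 ± 0.34 for DFR (adjusted p = 0.00124), -1.52 ± 0.33 for AT4G14090, -1.51 ± 0.31 for UF3GT, -1.07 ± 0.22 for CHIL and -0.83 ± 0.26 for UGT78D2 (log2). For AT1G06000 it was -0.05, with a 95% interval of -0.81 to 0.71. Leaving out 1 further array left 4 or 5 calls, UGT78D2 being the gene that was lost.

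The summed intensities of shoot and of root markers were higher at 24 h than at 12 °C, apart from the 2 arrays. The summed intensity of the 4 shoot markers ran, without the 2 arrays, from 26646 to 31807 at 12 °C, from 36715 to 40164 after 2 h and from 49061 to 51096 after 24 h in arp6-10. In Col-0 it ran from 36512 to 42039, from 52291 to 56108 and from 57672 to 58290 at these times. The 12 °C array that stands apart had 48786 and the 24 h one 26896. Of 14 root markers listed, 3 had a probe set of their own, and their sum was higher at 24 h. Without the 2 arrays they summed in arp6-10 to between 6335 and 10969 at 12 °C and 6352 and 10078 after 2 h. After 24 h they summed to between 11071 and 13013. In Col-0 they summed to between 9646 and 10164, 7570 and 10376, and 12169 and 14390 at these times, so 12 °C and 24 h did not overlap in either genotype. PYK10, at 5317.6 to 12856.2 by far the brightest of the 3, makes up most of the root sum. The dim EXPA7 did not follow the sum. In Col-0 it read 96.4 and 90.5 at 12 °C and 82.3 and 23.6 after 24 h. In arp6-10 without the 2 arrays it read 99.0, 77.5 and 78.8 at 12 °C and 147.4, 60.5 and 52.5 after 24 h. The part of these marker differences in the flavonoid results was not tested.

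**Figure D4:**
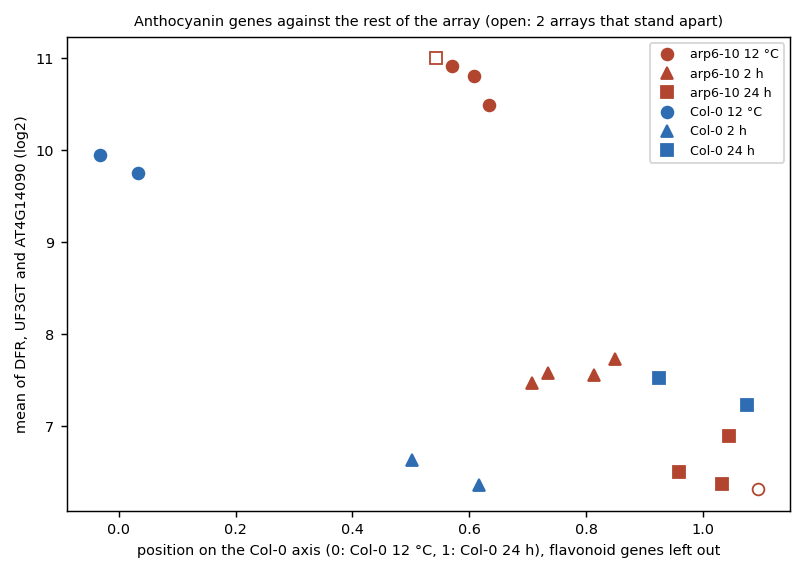
Mean log2 value of DFR, UF3GT and AT4G14090 on each array (vertical) against the array's place between Col-0 12 °C (0) and Col-0 24 h (1), computed from probe sets outside the flavonoid lists (horizontal); shapes are times, red is arp6-10, blue is Col-0 and open symbols are the 2 arrays that stand apart. The mutant's filled 12 °C arrays lie between 0.571 and 0.634 on the horizontal axis and above both Col-0 12 °C arrays on the vertical one. The open 12 °C array lies at 1.093 beside the 24 h arrays.

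On that Col-0 axis the mutant's filled 12 °C arrays lay between 0.571 and 0.634, where Col-0 arrays after 2 h lay between 0.502 and 0.616. The mean log2 value of DFR, UF3GT and AT4G14090 was 10.5 to 10.9 on those mutant arrays and 6.36 to 6.63 on those Col-0 arrays. These arrays lay at about the same place on the Col-0 axis and differed in these 3 genes and in temperature. On the axis between the mutant 12 °C and 24 h arrays they lay apart. There the mutant arrays lay between -0.029 and 0.024 and the Col-0 arrays between 0.733 and 0.743. How the 3 genes relate to the place on either axis was not tested.

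The 6 genes varied together over arrays. DFR and UF3GT had a Pearson correlation of 0.988 over the 18 arrays and 0.985 over 16, DFR and AT4G14090 0.974 and 0.971, and CHIL and UGT78D2 0.963 and 0.959. DFR and AT1G06000 had 0.839 and 0.81. These are descriptions of arrays that share groups and scaling. Among the 8723 other genes with a single-gene probe set that was tested, those with the highest correlation with DFR over 18 arrays were AT3G16780 (0.966), the cell wall enzyme gene XTH20 (0.955), AT5MAT (0.955), AT4G04940 (0.943) and the tRNA 3' processing gene TRZ1 (0.942). AT5MAT, called 5MAT below, encodes the malonyltransferase that acylates anthocyanins. AT1G06000 was most like AT5G41670 (0.971).

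The rest of the pathway could be followed only in part. Among 55 other genes in 6 lists, a probe set of their own was found for 7, and 5 passed the filter on low values. The lists of the entry into phenylpropanoids (7 genes) and of the flavonoid core (4 genes) had none. The flavonol branch was tested through UGT78D1, 1 of 7 genes, the anthocyanin branch through 5MAT, 1 of 8, the proanthocyanidin branch through TT15, 1 of 5, and the regulators through TRY and HYH, 2 of 24.

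UGT78D1, a flavonol 3-O-rhamnosyltransferase gene, was called lower after 2 h in both genotypes with all 18 arrays. Its log2 change was -1.26 ± 0.30 in arp6-10 (adjusted p = 0.0286) and -1.61 ± 0.43 in Col-0 (adjusted p = 0.0308). On 16 arrays the change in arp6-10 was -1.52, again called lower. At 24 h against 12 °C its changes on 16 arrays were -0.989 in arp6-10 and -0.561 in Col-0, both called lower. With all 18 arrays they were -0.365 and -0.561 and did not pass. Its intensity in arp6-10 was 1476.8, 867.6, 568.7 and 1210.5 at 12 °C, 438.4, 414.0, 354.2 and 366.8 after 2 h, and 593.8, 1588.6, 563.3 and 564.8 after 24 h. In Col-0 it was 609.9 and 769.1, 206.9 and 191.2, and 470.0 and 470.7 at these times. All 24 h arrays were above all 2 h arrays in both genotypes, as for AT1G06000. On 16 arrays it was higher at 24 h than at 2 h by 0.53 ± 0.16 in arp6-10 (adjusted p = 0.0276) and by 1.05 ± 0.20 in Col-0 (adjusted p = 0.00226). It was also called higher in arp6-10 than in Col-0 on 16 arrays, by 0.70 ± 0.19 at 12 °C (adjusted p = 0.00603) and by 0.80 ± 0.18 after 2 h (adjusted p = 0.00437). With all 18 arrays these differences were 0.44 ± 0.37 and 0.80 ± 0.37 and did not pass.

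5MAT also read highest at 12 °C, apart from the 2 arrays. In arp6-10 it read 390.2, 331.5, 17.5 and 626.5 at 12 °C, 37.0, 38.1, 54.5 and 30.3 after 2 h, and 27.9, 513.9, 33.2 and 30.5 after 24 h. In Col-0 it read 203.4 and 227.5, 37.2 and 50.3, and 37.9 and 38.7 at these times. Its changes did not pass with all 18 arrays. On 16 arrays it was 7.75-fold lower after 2 h and 10.1-fold lower after 24 h in arp6-10 (log2 -2.95 ± 0.19 and -3.33 ± 0.21), and 3.90-fold and 4.86-fold lower in Col-0. Between 24 h and 2 h its change was -0.38 ± 0.19 in arp6-10 and -0.32 ± 0.25 in Col-0, and neither passed. The difference between the genotypes' 24 h responses was -1.05 ± 0.33 on 16 arrays (adjusted p = 0.0407). With all 18 arrays it had the opposite sign, 0.771, and did not pass. On 16 arrays 5MAT was called higher in arp6-10 than in Col-0 at 12 °C, by 0.788. After 24 h that genotype difference was -0.266 and did not pass. With all 18 arrays these 2 differences were -0.145 and 0.626, and neither passed.

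Of the 24 regulators listed, only HYH and TRY could be tested. HYH, a bZIP relative of the light-signalling factor HY5, was 1.84-fold lower after 2 h in arp6-10 with all 18 arrays (log2 change -0.88 ± 0.22, adjusted p = 0.0349), and had a change of -0.13 ± 0.31 in Col-0. The difference between these 2 responses was -0.74 ± 0.38 with all 18 arrays and did not pass (adjusted p = 0.384), and -0.98 ± 0.25 on 16 arrays (adjusted p = 0.0443). On 16 arrays HYH was again called lower after 2 h in arp6-10. It was then also called higher in arp6-10 than in Col-0 at 12 °C, which did not pass with all 18. The intensities at 12 °C were 624.2, 694.7, 321.8 and 502.2 in arp6-10 (replicates 1 to 4) and 296.7 and 384.0 in Col-0. TRY, a small MYB protein gene known for inhibiting trichomes, was 2.79-fold lower in arp6-10 than in Col-0 after 2 h with all 18 arrays (log2 difference -1.48 ± 0.36, adjusted p = 0.0181). Its intensities there were 31.8 to 37.5 on the 4 arp6-10 arrays, against 99.5 and 131.7 in Col-0. TT15, a sterol glucosyltransferase gene needed for seed coat pigment, passed in none of the 11 comparisons with 18 arrays or with 16.

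**Figure D5:**
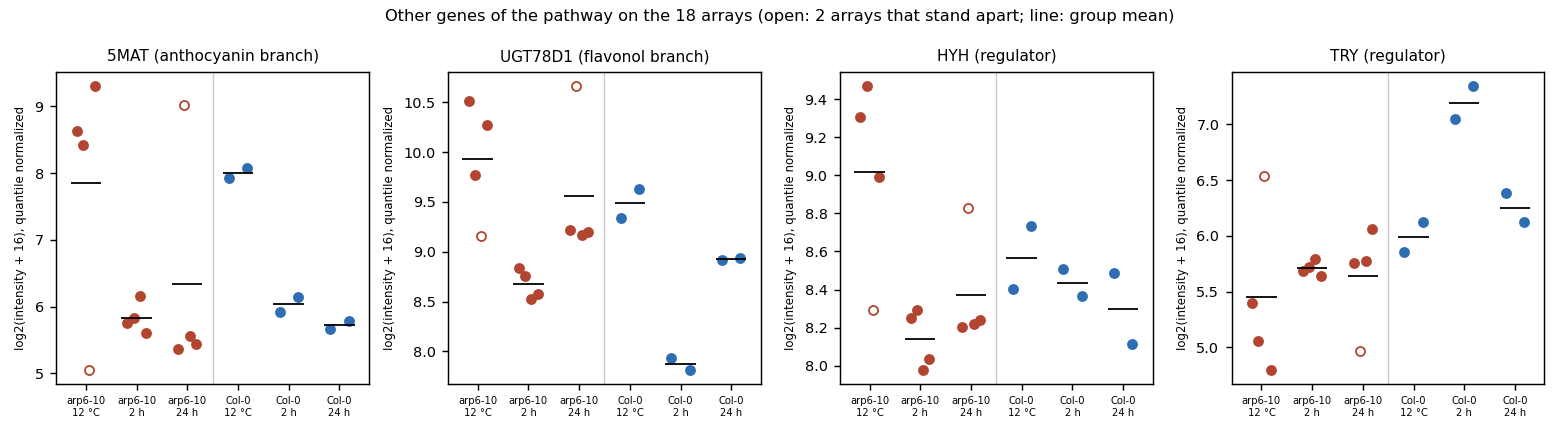
Quantile-normalized log2(intensity + 16) of 5MAT, UGT78D1, HYH and TRY on each array, by genotype and time; lines are group means over all arrays of a group and open points the 2 arrays that stand apart, and each panel has its own vertical scale. 5MAT stays low after 24 h in both genotypes, whereas the 24 h points of UGT78D1 lie above its 2 h points.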

How the data were processed

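Whole-seedling RNA, 1 µg per sample, was labelled as biotin cRNA and hybridised to Affymetrix arrays, per the labels' protocols. The authors deposited 1 linear intensity per probe set and array, which the submitters' processing notes credit to GCOS, in a version not given in the sources used here. The deposited intensities reached 37829.8, and left array medians that spanned 0.452 on the log2 scale. They were quantile normalized here, log2(value + 16) was taken, and the lowest 30% of probe sets by mean value were left out, which left 15922, all 6 genes included. limma 3.58.1 (R 4.3.3) with an intensity trend fitted 6 group means with 12 residual degrees of freedom (10 on 16 arrays, 3 on the 6 Col-0 arrays), adjusted by Benjamini-Hochberg over all probe sets tested at 0.05. The script was tested on simulated data. The number of arrays limits the precision.

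Probe sets were named through GEO's platform annotation with symbols updated from RefSeq (assembly TAIR10.1). Of them 13513 were paired with 1 gene, 503 with several and 8730 were not listed, and 64 were controls. The members and lists were chosen with earlier results of these data known. Named beside the members are all tested genes of the pathway lists and the genes that correlate best with DFR and AT1G06000. Replicate numbers were not used to pair the samples in the main fit. Over 36 same-numbered pairs the deviations from group means correlated at -0.402 to 0.56, with 9 over 0.1. This cannot exclude pairing. The 2 arrays that stand apart shift the deviations in their groups, and the 2 arrays of a Col-0 group deviate as mirror images. No 2 arrays were copies, since at most 0.611% of values were identical. Comparisons of branches used exact permutation tests over samples. Alternatives changed the scaling, pseudocount, filter, trend, robustness, block and arrays used.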

Additional observations from a re-analysis of the deposited data

Results flagged for a closer look

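A sample far from the others of its group was found in 7 of the 18 arp6-10 groups of values (6 genes at 3 times) that Dixon's test covers. Chance alone gives about 1 in 20 for a single group. The 18 groups are not independent, because the 6 genes vary together on the same arrays. The count therefore cannot be set against that rate. All 7 lie on the 2 arrays that stand apart. On arp6-10 12 °C replicate 3 the log2 values were 8.55 for CHIL, 6.79 for DFR and 5.87 for UF3GT, each far below the other 12 °C arrays. On arp6-10 24 h replicate 2 they were 11.08 for CHIL, 11.17 for UGT78D2, 10.52 for UF3GT and 10.64 for AT4G14090, each far above the other 24 h arrays. The 2 arrays had GAPDH ratios of 5.51 and 1.51. On the axis between the mutant 12 °C and 24 h arrays each lay with the group of the other, at 0.954 and -0.035; how this came about was not tested.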

How the results depend on the processing

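Calls depended most on the 2 arrays that stand apart. The share of all probe sets called moved too. For arp6-10 2 h against 12 °C, 1.84% were called lower with all 18 arrays and 8.63% on 16. For Col-0 2 h against 12 °C these shares were 3.54% and 10.1%. Shares for the other settings are not given here, so a change in the counts below is not particular to the 6 genes. The genes called of 6, with all 18 arrays 3 for arp6-10 2 h against 12 °C, were 1 without the filter and with robust eBayes, 6 with array weights and on 16 arrays, and 0 to 6 with 1 array left out. For arp6-10 24 h against 12 °C (0 called) they were 6 with array weights and on 16 arrays, and 0 to 5 with 1 array left out. For arp6-10 24 h against 2 h (0) they were 1 with weights, 4 on 16 arrays, and 0 to 1. For Col-0 2 h against 12 °C (1) they were 3 with values as deposited, 3 with a replicate block, 0 without the filter and with robust eBayes, 6 with weights, on 16 arrays, with only the groups compared and with Col-0 alone, and 0 to 6. For Col-0 24 h against 12 °C (0) they were 5 with weights, 6 on 16 arrays, with the groups compared and with Col-0 alone, and 0 to 2. For Col-0 24 h against 2 h (0) they were 5 on 16 arrays, with the groups compared and with Col-0 alone. Between genotypes (0) they were 3 at 12 °C, 3 after 2 h (3 also with only the groups compared) and 2 after 24 h on 16 arrays, and 5 for the difference of 24 h responses. The array weights were 0.287 and 0.24 on the 2 arrays and 0.88 to 2.01 on the others.

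Between genotypes the median log2 difference of the 6 genes was -0.09 at 12 °C with all 18 arrays and 0.65 on 16, 0.32 and -0.37 after 24 h, and 0.49 and -1.29 for the difference of 24 h responses. Within a genotype directions turned for these values. For arp6-10 24 h minus 2 h, AT4G14090 was 0.11 with values as deposited and 0.16 with a pseudocount of 64, and -1.10 to 0.43 with 1 array left out. DFR was -0.034 with a pseudocount of 1, -1.01 with array weights and -1.16 on 16 arrays, and -1.16 to 0.59 with 1 array left out. UF3GT was -0.59 with weights and -0.72 on 16 arrays, and -0.72 to 0.73 with 1 array left out. Relative to AT1G06000, the change from 12 °C to 2 h in arp6-10 was 0.010 for UF3GT with a pseudocount of 64 and -0.37 for AT4G14090 on 16 arrays. With 1 array left out these changes ran from -0.92 to 0.14 for DFR, from -0.64 to 0.25 for UF3GT and from -0.37 to 0.35 for AT4G14090. The 24 h minus 2 h values were -2.14, -1.70 and -2.08 on 16 arrays for DFR, UF3GT and AT4G14090, each then at the smallest exact p the design allows, and ran from -2.14 to -1.10, from -1.70 to -0.96 and from -2.08 to -1.23 with 1 array left out. Of 1026 recomputed changes within a genotype 865 kept direction and call. The causes were not tested. With 2 Col-0 arrays a group, leaving 1 out assumes that the lone array varies like the others.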
